A study of Homo sapiens with 12 samples.

Results

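A2058 is an established human melanoma cell line whose labels give the BRAF mutation V600E. Its response to vemurafenib, a kinase inhibitor directed at mutant BRAF, is described here from 6 of the 12 arrays of a study that treated A2058 and A375 melanoma cells. The 6 arrays were chosen by sample title: 3 of A2058 cells with vemurafenib and 3 of A2058 cells with the solvent DMSO. Both A2058 groups carry the same mutation and were grown in the same medium with 10% serum. Per the labels vemurafenib stood at 1 µM, was replaced every 24 h and was left on for 72 h, and controls had an equal volume of DMSO. That treatment text is shared by all 12 samples and names A375p cells alone, so for A2058 the dose and duration are known only through that sharing. The other 6 arrays hold A375, labelled with the same mutation, with vemurafenib or DMSO, and enter here through the shared estimate of spread and through a test of where the lines differ. The labels do not say that replicates came from separate cultures, so each p-value measures the spread between these samples, which may be technical. Each group is 1 cell line.

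In melanoma with mutant BRAF the kinase signals without growth factors through MEK to ERK. ERK then switches on transcription factors, cyclin D1, secreted ligands and also its own inhibitors, among them the dual specificity phosphatases and the Sprouty proteins, so transcripts of these inhibitors are commonly read as a gauge of ERK output. Melanoma cells also keep parts of the pigment cell program run by the transcription factor MITF, and in this tumour a high pigment program and an undifferentiated, invasive program are known as alternative states. These sentences are background and were not tested here.

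The arrays are Affymetrix Human Gene 1.0 ST, and the values are the authors' log2 expression values. For each of 18404 genes, 1 probe set was kept, chosen by its mean level on the 12 arrays, the highest where a gene had several. All levels below are on that log2 scale. Each change is the mean of the 3 vemurafenib arrays minus the mean of the 3 DMSO arrays, given ± the standard error of limma's moderated fit, with 3 arrays per group. A change of 1 is a doubling. A gene was called, and is said to rise or fall, when its Benjamini-Hochberg adjusted p over all genes was under 0.05. Arrays have no read depth, and their number limits the precision. The array signal of a cell population cannot tell fewer cells of a kind from less RNA per cell.

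The A2058 arrays resembled each other closely, with correlations between replicates of 0.9978 to 0.9989 across genes and a median SD within a group of 0.059 with DMSO and 0.051 with vemurafenib. Melanocytic markers were present: of 13 measured of 16 listed, 9 rose and 1 fell, and their mean over the list lay between 7.85 and 7.89 on the DMSO arrays and between 8.70 and 8.73 on the vemurafenib arrays. Markers that other cell types would bring were mostly low. Their means per DMSO array were 5.55 to 5.59 for 12 fibroblast markers, 5.18 for 12 blood and immune markers, 5.38 to 5.42 for 10 epithelial markers and 4.85 to 4.97 for 10 endothelial markers. With vemurafenib these were 5.53 to 5.54, 5.01 to 5.06, 5.21 to 5.23 and 4.85 to 4.88. The leucocyte antigen PTPRC read 4.15 in both groups and the T cell receptor subunit CD3E 4.67 and 4.65, near the 4.43 median of probe sets with no gene symbol. In these lists LYZ (6.91 to 4.79), the keratin KRT18 (8.87 to 7.46) and the endothelial receptor KDR (5.70 to 5.06) fell. Of the fibroblast markers, LUM (6.88 to 6.47), FAP (6.75 to 6.46) and ACTA2 (7.71 to 7.47) fell and POSTN (5.19 to 5.51) rose, and of the blood markers CD68 (8.32 to 8.53) rose. Their part in the results was not tested. Where either group of a gene lies near that 4.43, its change is that of the measured values, which may understate it, and its rank by size is uncertain.

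Of 18404 genes, 4991 were called (27.1%), 2691 up (14.6%) and 2300 down (12.5%). The 3 vemurafenib arrays lay wholly above or below the 3 DMSO arrays in 7473 genes (40.6%), above in 4032 (21.9%) and below in 3441 (18.7%). Both conditions, a call and arrays that do not overlap, were met by 4955 genes (26.9%). Most called changes were small, with a median size of 0.33, and 365 genes (1.98%) were called with at least a 2-fold change, 154 up (0.837%) and 211 down (1.15%). Falls therefore outnumbered rises among the large changes although rises outnumbered falls among all calls. The median change over all genes was 0.0064, and the median standard error was 0.058.

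The 15 largest rises among called genes with separated arrays included several genes of the pigment cell. TYRP1, an enzyme of melanin synthesis, read 6.10, 5.82 and 6.27 with DMSO and 9.31, 9.35 and 9.32 with vemurafenib, a 9.59-fold rise of 3.26 ± 0.13 (adjusted p = 1.96e-09). The premelanosome protein PMEL, which forms the fibrils on which melanin is laid down, read 8.52, 8.40 and 8.43 with DMSO and 10.88, 10.89 and 10.86 with vemurafenib (2.43 ± 0.055). MLANA, a melanosomal protein used as a diagnostic melanocyte marker, read 4.68, 4.78 and 4.79 with DMSO and 7.12, 7.0 and 7.13 with vemurafenib (2.33 ± 0.047). All 3 genes were separated by more than 2 log2 units between the nearest arrays of the groups. KIT, the receptor of stem cell factor on which melanoblasts depend, went from 4.58, 4.55 and 4.60, which is close to the unnamed probe sets, to 7.49, 7.57 and 7.54 (2.96 ± 0.047, adjusted p = 1.12e-12). Its 6 arrays lay within 0.05 of their group means.

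The other 11 of these genes have varied roles. The small heat shock chaperone CRYAB read 4.82, 4.94 and 4.80 with DMSO and 8.01, 8.12 and 8.06 with vemurafenib (3.21 ± 0.14). The ATP-gated ion channel P2RX7 read 5.93, 5.82 and 6.05 with DMSO and 9.21, 9.20 and 8.88 with vemurafenib (3.16 ± 0.096), and the inward rectifier potassium channel KCNJ13 4.17, 4.28 and 4.17 with DMSO and 7.22, 7.41 and 7.04 with vemurafenib (3.01 ± 0.073). The groups did not overlap in these 3. P2RX7 rose 8.97-fold, and no fold is given for KCNJ13, below the 4.43 median of unnamed probe sets with DMSO, or for CRYAB, not far above it. The protease inhibitor A2M (2.70 ± 0.053), the microtubule-associated kinase DCLK1 (2.49 ± 0.052), the class I myosin MYO1D (2.40 ± 0.10) and the stress protein TP53INP1 (2.36 ± 0.066) followed. Carbonic anhydrase CA14 (2.27 ± 0.043), PRUNE2 (2.27 ± 0.086), the neuron navigator NAV2 (2.27 ± 0.050) and the membrane glycoprotein GPM6B (2.27 ± 0.098) closed the group. The smallest of the 15, that of GPM6B, was 4.81-fold, and the groups did not overlap in any, since the rule required it.

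Among the 15 largest falls, MRGPRX4, a G protein-coupled receptor with close relatives that may bind its probes, read 8.69, 8.52 and 8.79 with DMSO and 4.43, 4.48 and 4.66 with vemurafenib (-4.15 ± 0.079). RGS5, which shortens G protein signals, read 9.25, 8.97 and 9.25 with DMSO and 5.41, 5.34 and 5.17 with vemurafenib (-3.85 ± 0.093). The PEA3 family factor ETV4 read 8.89, 8.93 and 9.02 with DMSO and 5.08, 5.22 and 5.41 with vemurafenib (-3.71 ± 0.075). On the vemurafenib arrays all 3 lay between 4.43 and 5.41, not far above the 4.43 median of unnamed probe sets. CXCL8, the neutrophil chemokine, read 9.38, 9.35 and 9.42 with DMSO and 5.66, 5.58 and 5.91 with vemurafenib (-3.67 ± 0.074), and OTULINL 8.44, 8.34 and 8.61 with DMSO and 4.76, 4.80 and 4.86 with vemurafenib (-3.66 ± 0.061). The rest held the ectoenzyme NT5E, which makes adenosine (-3.16 ± 0.050), the growth factor binding protein IGFBP3 (-3.06 ± 0.063), the hyaluronan-degrading protein CEMIP (-2.92 ± 0.046), the protease inhibitor TFPI2 (-2.80 ± 0.071) and the EGF receptor ligand TGFA (-2.78 ± 0.11). SHISA2 (-3.30 ± 0.065), the ether lipid monooxygenase AGMO (-3.07 ± 0.13), the Sprouty protein SPRY4 (-3.00 ± 0.060), the reductase CYB5R2 (-2.82 ± 0.082) and the intracellular serpin SERPINB8 (-2.75 ± 0.066) completed the group. The smallest of the 15 falls, that of SERPINB8, left it 6.73-fold lower.

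**Figure D1:**
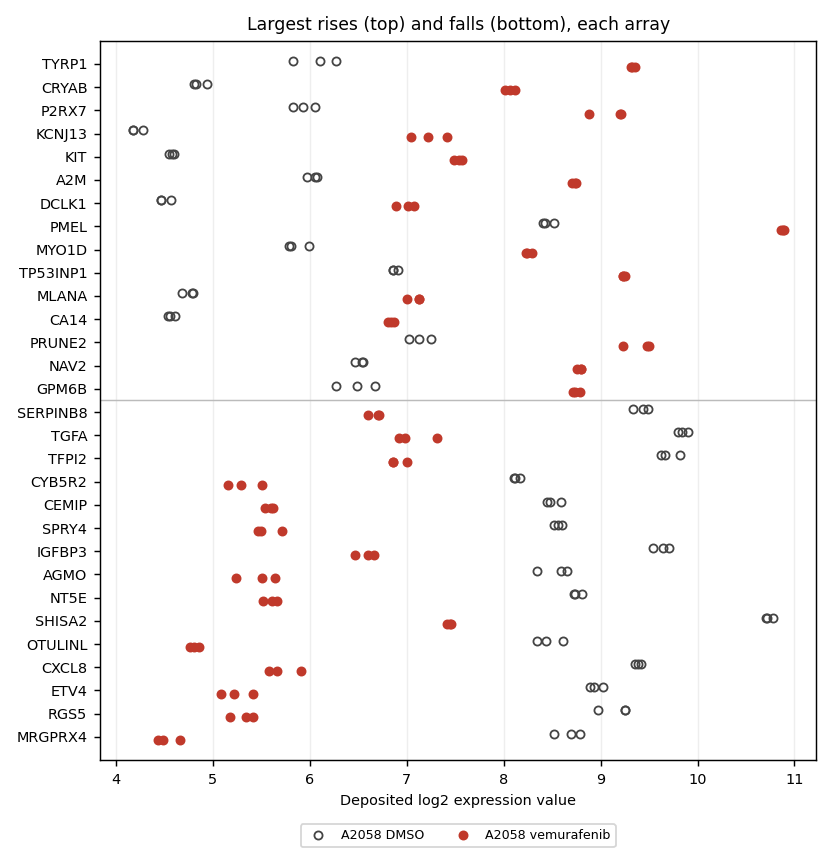
Deposited log2 expression value (x axis) of the 15 genes with the largest rises and the 15 with the largest falls in A2058, 1 point per array, open for the 3 DMSO arrays and filled for the 3 vemurafenib arrays. The groups do not overlap in any of the 30 genes, as the rule that chose them required; TYRP1 moved from between 5.82 and 6.27 to between 9.31 and 9.35, and MRGPRX4 from between 8.52 and 8.79 to between 4.43 and 4.66.

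To describe pathways, 53 gene lists with 1735 measured entries (1611 different genes) were set beside all genes tested, for which 14.6% were called up, 12.5% down and the median change was 0.0064. The lists were written with earlier results of these data known, so their counts describe the response and are no independent support for it. The lists with the highest share of rises were lysosomal hydrolases and membrane proteins (69.05%), melanin and melanosome genes (64.71%), other MITF targets and cholesterol genes (63.64% each) and FOXO genes (62.5%). Those with the highest share of falls were serine, one-carbon and nucleotide synthesis (80%), glycolysis (78.26%), ERK feedback inhibitors and hypoxia-inducible genes (75% each), ribosome biogenesis (73.91%) and undifferentiated melanoma genes (70.59%). Of the 365 genes called with at least a 2-fold change, 123 stood in a list and 242 in none.

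**Figure D2:**
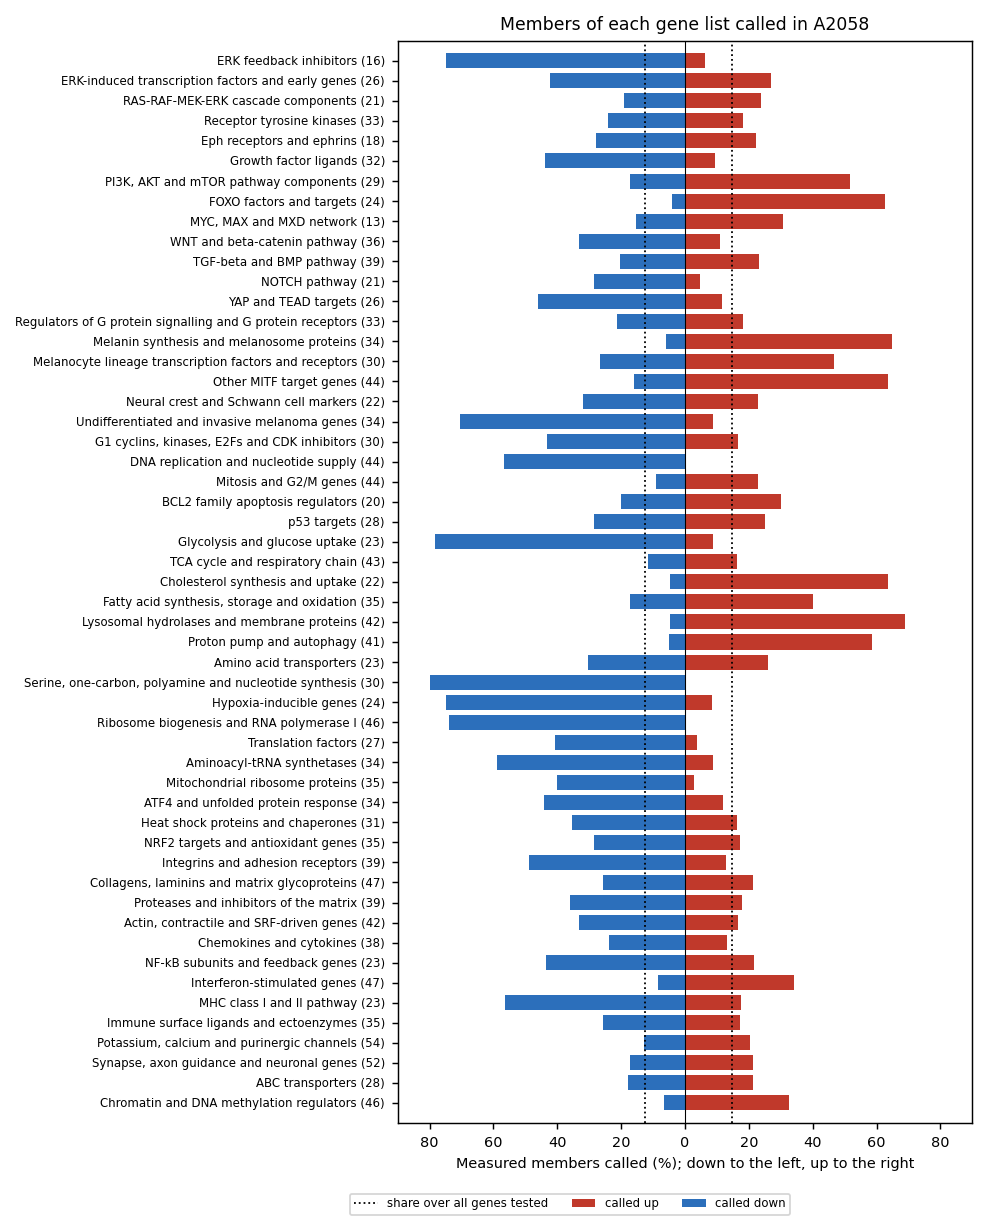
Share of the measured members of each of the 53 gene lists (number measured in brackets) that was called down (bars to the left, in %) or up (bars to the right, in %) in A2058. Dotted lines mark the shares over all 18404 genes, 12.5% down and 14.6% up; lysosomal, melanosome, MITF target, cholesterol and FOXO lists reach furthest up, and the nucleotide synthesis, glycolysis, ERK feedback, hypoxia and ribosome biogenesis lists furthest down.

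The feedback inhibitors of the ERK pathway fell. Of 16 measured members of the 17 listed, 12 fell and 1 rose, with a median of -0.46, and 6 fell at least 2-fold. SPRY4, which blocks growth factor signals upstream of ERK, read 8.52, 8.60 and 8.56 with DMSO and 5.46, 5.49 and 5.71 with vemurafenib (-3.00 ± 0.060, 8.01-fold lower, adjusted p = 4.05e-12). DUSP6, the cytoplasmic phosphatase of ERK itself, read 9.67, 9.75 and 9.80 with DMSO and 7.15, 7.0 and 7.19 with vemurafenib (-2.63 ± 0.055, 6.17-fold lower). IER3, an early response gene counted in this list although it is not itself an ERK inhibitor, read 10.25, 10.29 and 10.23 with DMSO and 8.40, 8.54 and 8.59 with vemurafenib (-1.75 ± 0.059). The 3 DMSO arrays of each stood at least 1.6 above the highest vemurafenib array. SPRY1 (-1.58 ± 0.072), the nuclear phosphatase DUSP4 (-1.31 ± 0.046) and SPRY2 (-1.28 ± 0.076) also fell over 2-fold, and the receptor inhibitor LRIG1 (-0.59 ± 0.056), SPRED2 (-0.47 ± 0.058), DUSP5 (-0.45 ± 0.072), the RAS GTPase activator RASA2 (-0.41 ± 0.088), SPRED1 (-0.34 ± 0.042) and DUSP7 (-0.28 ± 0.039) by less. DUSP10 (-0.17), SPRED3 (-0.040) and SPRY3 (-0.035) were not called, though DUSP10 passed without A2058 DMSO replicate 2 or A375 vemurafenib replicate 1. The 1 rise, that of the RAS GTPase activator NF1 (0.16 ± 0.052, adjusted p = 0.0365), was lost without A2058 DMSO replicate 1, 2 or 3, A2058 vemurafenib replicate 1 or 2, or A375 DMSO replicate 2, which left the count of rises at 0.

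Transcription factors and early genes that ERK induces moved in both directions. Of 26 measured members of the 27 listed, 11 fell and 7 rose, with a median of -0.029 (-0.084 without A2058 vemurafenib replicate 3, 0.0031 without A2058 DMSO replicate 2). The 3 PEA3 factors fell together: besides ETV4, ETV1 read 9.21, 9.24 and 9.29 with DMSO and 7.36, 7.33 and 7.18 with vemurafenib (-1.96 ± 0.056) and ETV5 9.79, 9.76 and 9.86 with DMSO and 7.90, 7.78 and 7.90 with vemurafenib (-1.95 ± 0.058). The AP-1 subunit FOSL1 (-1.17 ± 0.14) and the early growth response factor EGR3 (-0.67 ± 0.057) fell as well, as did IER2 (-0.41 ± 0.096), MAFF (-0.32 ± 0.074), SRF (-0.31 ± 0.041) and MYC, which read 8.71, 9.00 and 8.86 with DMSO and 8.48, 8.58 and 8.57 with vemurafenib (-0.32 ± 0.077, adjusted p = 0.00766). JUN, another AP-1 subunit, rose from 5.75, 5.97 and 5.79 to 7.23, 7.16 and 7.31 (1.40 ± 0.069), and the orphan nuclear receptor NR4A3 (0.89 ± 0.058), KLF6 (0.73 ± 0.045), KLF10 (0.29 ± 0.047), JUND (0.28 ± 0.058) and FOS (0.18 ± 0.043) rose. EGR1 (0.063) and ATF3 (-0.071), textbook early genes, were not called.

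The kinases and GTPases of the cascade moved little. Of 21 measured members of the 26 listed, 5 rose (23.81% against 14.6% over all genes) and 4 fell (19.05% against 12.5%). The rises were 2 to 3 without any 1 of A2058 DMSO replicate 1 or 3 or A2058 vemurafenib replicate 1, 2 or 3. None of the members changed 2-fold. The exchange factor SOS2 (0.64 ± 0.081) rose, the ERK-activated kinases RPS6KA3 (-0.58 ± 0.062) and RPS6KA1 (-0.56 ± 0.065) fell, and MAP2K1, the gene of MEK1, fell by a small amount (-0.28 ± 0.044).

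Receptors moved in both directions. Of 33 measured receptor tyrosine kinases, 8 fell (24.24% against 12.5% over all genes) and 6 rose (18.18% against 14.6%). Opposite to KIT, the VEGF receptor FLT1 read 6.65, 6.48 and 6.74 with DMSO and 5.07, 5.18 and 5.18 with vemurafenib (-1.48 ± 0.077), and AXL, a receptor linked to the invasive state, 9.80, 9.90 and 9.85 with DMSO and 8.49, 8.50 and 8.48 with vemurafenib (-1.36 ± 0.045). The 3 vemurafenib arrays of AXL lay within 0.02 of each other. IGF1R (-0.66 ± 0.051), FGFR1 (-0.65 ± 0.049), KDR (-0.64 ± 0.076), the collagen receptor DDR2 (-0.40 ± 0.048) and MET (-0.25 ± 0.063) fell, while FGFR3 (0.39 ± 0.083), ERBB2 (0.33 ± 0.057), NTRK2 (0.33 ± 0.042) and PTK7 (0.32 ± 0.074) rose. EGFR read 5.06, 5.13 and 4.67 with DMSO and 4.93, 4.74 and 4.72 with vemurafenib, groups that overlap (-0.16 ± 0.10, adjusted p = 0.359). Leaving out A2058 DMSO replicate 3 made it a call (-0.30), at an adjusted p of 0.013, the lowest of the 20 alternatives, whose highest was 0.771.

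Of 32 growth factor genes, 14 fell and 3 rose (43.75% against 12.5% and 9.375% against 14.6% over all genes). TGFA read 9.84, 9.80 and 9.90 with DMSO and 6.98, 7.31 and 6.92 with vemurafenib (-2.78 ± 0.11), the angiogenic factor VEGFA 8.55, 8.77 and 8.70 with DMSO and 6.80, 6.72 and 6.68 with vemurafenib (-1.94 ± 0.064), and GDF15, a stress-induced cytokine, 9.06, 9.13 and 8.95 with DMSO and 7.06, 7.2 and 7.11 with vemurafenib (-1.92 ± 0.055). The 3 were 6.86-fold lower, 3.83-fold lower and 3.79-fold lower with vemurafenib, without overlap. ANGPT1 (-1.22 ± 0.091), FGF13 (-0.87 ± 0.088), PDGFC (-0.69 ± 0.069), FGF2 (-0.67 ± 0.062) and PDGFD (-0.56 ± 0.067) also fell. The 3 that rose were midkine, MDK (0.80 ± 0.084), the AXL family ligand GAS6 (0.47 ± 0.12) and VEGFB (0.41 ± 0.056). Among 18 Eph receptors and ephrins, which signal between touching cells, 5 fell (27.78% against 12.5%) and 4 rose (22.22% against 14.6%). Without A2058 vemurafenib replicate 1, 2 rose. EPHA4 fell from 8.15, 8.08 and 8.29 to 6.01, 5.93 and 5.99 (-2.20 ± 0.057), and the ephrin EFNB2 (-1.37 ± 0.078), EPHA2 (-1.04 ± 0.075), EPHA3 (-0.77 ± 0.058) and EFNA5 (-0.72 ± 0.067) fell, while EPHA5 (0.52 ± 0.052) and EFNB3 (0.31 ± 0.058) rose.

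Components of the PI3K, AKT and mTOR pathway mostly rose. Of 29 measured members of the 33 listed, 15 rose and 5 fell, with a median of 0.17; 3 fell without A2058 DMSO replicate 1 or 3 or any 1 A2058 vemurafenib array. The regulatory subunit PIK3R3 read 6.56, 6.41 and 6.52 with DMSO and 8.72, 8.86 and 8.61 with vemurafenib (2.23 ± 0.088), and SESN3, a sestrin that restrains mTOR complex 1, 8.42, 8.49 and 8.60 with DMSO and 9.94, 10.01 and 9.95 with vemurafenib (1.46 ± 0.050). The docking protein GAB1 rose by 0.97 ± 0.065, or by 0.58 when its probe sets were averaged, and the AKT phosphatase PHLPP1 by 0.66 ± 0.091, or 0.35 averaged. IRS2 (0.63 ± 0.049) and INPP4B (0.45 ± 0.056) rose, and the catalytic subunit PIK3CG (-1.2 ± 0.054) and DDIT4 (-0.72 ± 0.047), which like SESN3 restrains mTOR, fell. AKT1 (0.008) and AKT2 (-0.014) were not called.

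FOXO factors, which AKT keeps out of the nucleus, and their targets had 15 rises and 1 fall among 24 measured members, with a median of 0.30. KLHL24 read 7.09, 7.06 and 7.22 with DMSO and 8.93, 8.93 and 8.89 with vemurafenib (1.79 ± 0.086). The muscle atrophy ubiquitin ligase FBXO32 read 7.79, 7.73 and 7.92 with DMSO and 9.01, 8.85 and 8.91 with vemurafenib (1.10 ± 0.084). CITED2 (0.74 ± 0.054), the thioredoxin inhibitor TXNIP (0.69 ± 0.041), the CDK inhibitor CDKN1B (0.47 ± 0.052), the retinoblastoma relative RBL2 (0.42 ± 0.078), cyclin G2, CCNG2 (0.38 ± 0.077), and FOXO4 itself (0.36 ± 0.080) rose. PDK4, a pyruvate dehydrogenase kinase that FOXO factors induce in other tissues, went the other way (-0.88 ± 0.058). FOXO1 (0.11) and FOXO3 (0.18) were not called. In the MYC network of 13 genes, 4 rose (30.77% against 14.6% over all genes), 2 fell (15.38% against 12.5%) and 7 were not called. Of the MAX partners that oppose MYC, MXD4 (0.71 ± 0.051), MXI1 (0.41 ± 0.048) and MXD1 (0.34 ± 0.066) rose, as did the glucose-sensing factor MLXIP (0.80 ± 0.059). MYC and MLX (-0.24 ± 0.038) fell. Against a null of 1.2-fold, 2 rises and no fall of this network were still called.

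Other developmental pathways showed large falls of single genes. In the WNT list 12 of 36 fell and 4 rose. DKK1, a secreted inhibitor of WNT receptors, read 9.22, 9.11 and 9.17 with DMSO and 6.82, 6.77 and 6.83 with vemurafenib (-2.36 ± 0.089), and SFRP1, which binds WNT proteins, 9.58, 9.68 and 9.69 with DMSO and 7.41, 7.41 and 7.56 with vemurafenib (-2.19 ± 0.051). The receptors FZD6 (-0.94 ± 0.091), FZD8 (-0.77 ± 0.086) and FZD7 (-0.67 ± 0.056), the factors TCF7L2 (-0.85 ± 0.066) and LEF1 (-0.77 ± 0.047) and WNT5A (-0.49 ± 0.080) fell too, and APC (0.47 ± 0.058) and beta-catenin, CTNNB1 (0.33 ± 0.049), rose; AXIN2 (-0.056), a common target gene, was not called. Inhibitors and effectors of the pathway thus fell side by side.

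In the TGF-beta and BMP list, 9 of 39 rose (23.08% against 14.6% over all genes) and 8 fell (20.51% against 12.5%). The activin subunit INHBA read 7.46, 7.32 and 7.36 with DMSO and 5.33, 5.09 and 5.27 with vemurafenib (-2.15 ± 0.063), and the inhibitor of differentiation ID2 8.21, 7.99 and 8.21 with DMSO and 9.42, 9.42 and 9.34 with vemurafenib (1.26 ± 0.092). LTBP1 (0.84 ± 0.076) and the receptor TGFBR2 (0.71 ± 0.038) rose, and ID1 (-0.65 ± 0.049), ACVR1 (-0.69 ± 0.064) and SMAD3 (-0.58 ± 0.056) fell. Of 21 NOTCH genes, 6 fell and 1 rose (2 rose without A375 vemurafenib replicate 1). The NOTCH target HEY1 read 9.30, 9.29 and 9.37 with DMSO and 7.31, 7.48 and 7.54 with vemurafenib (-1.88 ± 0.060), and the ligand JAG1 (-0.64 ± 0.045), HEY2 (-0.62 ± 0.075), MAML3 (-0.59 ± 0.048), NOTCH3 (-0.45 ± 0.10) and MAML2 (-0.45 ± 0.058) fell, against NOTCH1 (0.26 ± 0.059).

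Targets of YAP and TEAD, the factors of the Hippo pathway, had 12 falls and 3 rises among 26. NT5E fell most, from 8.72, 8.74 and 8.81 to 5.61, 5.66 and 5.52. DOCK5 (-1.35 ± 0.056), CRIM1 (-1.08 ± 0.040) and PTPN14 (-0.63 ± 0.034) fell, and so did CCN2 (-0.56 ± 0.074), one of the best known targets, whereas ANKRD1 (-0.079) was not called. Among 33 RGS and G protein receptor genes 7 fell (21.21% against 12.5% over all genes) and 6 rose (18.18% against 14.6%). RGS5 stood out on the low side, and on the other the serotonin receptor HTR2B, which read 4.85, 4.85 and 4.87 with DMSO and 6.4, 6.62 and 6.20 with vemurafenib (1.55 ± 0.086), and the endothelin receptor EDNRB, needed by melanoblasts, which read 10.64, 10.44 and 10.61 with DMSO and 11.44, 11.44 and 11.41 with vemurafenib (0.87 ± 0.078).

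The pigment cell program rose. Of the melanin synthesis and melanosome proteins, 34 of 36 listed were measured, of which 22 rose and 2 fell, with a median of 0.51, and 8 rose at least 2-fold. Beside TYRP1, PMEL and MLANA, the copper pump ATP7A, which supplies tyrosinase, read 7.51, 7.50 and 7.64 with DMSO and 9.4, 9.32 and 9.29 with vemurafenib (1.79 ± 0.069), and melanophilin, MLPH, which ties melanosomes to actin motors, 5.86, 5.74 and 5.73 with DMSO and 7.61, 7.85 and 7.13 with vemurafenib (1.75 ± 0.14). The GTPases RAB32 (1.32 ± 0.056), RAB27A (1.15 ± 0.093) and RAB38 (0.84 ± 0.046), the Chediak-Higashi gene LYST (1.25 ± 0.055) and the motor MYO5A (0.69 ± 0.055) serve melanosome making and transport. Transporters of the melanosome rose by similar amounts, SLC24A5 by 0.71 ± 0.071, OCA2 by 0.66 ± 0.072 and SLC45A2 by 0.58 ± 0.066. SLC45A2 started at 4.41 with DMSO, near the 4.43 median of unnamed probe sets, so its rise may be understated. Tyrosinase itself, TYR, was already at 11.09, 10.85 and 10.83 with DMSO and reached 11.40, 11.39 and 11.33 (0.45 ± 0.11).

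Of the other members, 10 were not called and 2 fell. HPS5, of a complex that sorts cargo to melanosomes, fell (-0.37 ± 0.042). The small fall of MYRIP (-0.14 ± 0.042) was lost without A2058 DMSO replicate 1 or 2 or A2058 vemurafenib replicate 1 or 2, which left 1 fall. The melanosomal receptor GPR143 was not called (-0.096 ± 0.072). DCT was not analysed here.

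Transcription factors and receptors of the melanocyte lineage moved in both directions: 14 of 30 rose, KIT the most, and 8 fell. MITF read 9.68, 9.80 and 9.84 with DMSO and 10.50, 10.51 and 10.50 with vemurafenib (0.73 ± 0.047, adjusted p = 1.21e-07), SOX10, which drives MITF, 9.17, 9.23 and 9.23 with DMSO and 9.47, 9.46 and 9.51 with vemurafenib (0.27 ± 0.044), and PAX3 7.18, 7.36 and 7.36 with DMSO and 8.27, 8.26 and 8.36 with vemurafenib (1.00 ± 0.055). All 3 were higher on every vemurafenib array than on any DMSO array. IRF4, a pigmentation factor that MITF induces, rose from 6.48, 6.52 and 6.82 to 8.57, 8.61 and 8.80 (2.06 ± 0.10), and TFAP2A (0.81 ± 0.13), SOX4 (1.05 ± 0.091), SOX13 (0.85 ± 0.062) and FOXD3 (0.56 ± 0.097) rose. The EMT factors, of which SNAI2 and ZEB2 belong to normal melanocytes, split: SNAI2 read 10.52, 10.62 and 10.52 with DMSO and 11.82, 11.87 and 11.76 with vemurafenib (1.26 ± 0.046) and ZEB2 rose by 1.15 ± 0.041 (0.68 when its probe sets were averaged), while ZEB1 read 8.24, 8.23 and 8.29 with DMSO and 7.01, 7.02 and 7.09 with vemurafenib (-1.21 ± 0.043) and SNAI1 (-0.83 ± 0.084) and TWIST1 (-0.74 ± 0.069) fell. POU3F2, known from cells with low MITF, fell (-0.75 ± 0.064). MITF relatives TFEB (-0.0033) and TFEC (-0.031) were not called.

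Other MITF targets rose in 28 of 44 cases and fell in 7, with a median of 0.58, and 12 rose at least 2-fold. Beside KCNJ13 and NAV2, the inositol kinase ITPKB read 6.18, 6.19 and 6.35 with DMSO and 8.39, 8.40 and 8.52 with vemurafenib (2.20 ± 0.060), and myelin basic protein, MBP, 8.85, 8.86 and 8.89 with DMSO and 10.40, 10.59 and 10.59 with vemurafenib (1.66 ± 0.066). SEMA6A (1.63 ± 0.071), the endosomal syntaxin STX7 (1.59 ± 0.062), the chloride channel BEST1 (1.5 ± 0.064) and glycogenin GYG2 (1.32 ± 0.058) rose, as did the survival factor BCL2A1, at 6.46, 6.38 and 6.45 with DMSO and 7.49, 7.41 and 7.39 with vemurafenib (1.00 ± 0.098), and PPARGC1A, a coactivator of mitochondrial genes, at 7.92, 7.81 and 7.88 with DMSO and 8.77, 8.72 and 8.61 with vemurafenib (0.83 ± 0.064). Falls in this list included DUSP4, which is also an ERK target, CEACAM1 (-0.89 ± 0.067), TNFRSF19 (-0.88 ± 0.045) and HIF1A (-0.33 ± 0.069).

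Promoter sequences were read for the pigment genes because MITF binds a core motif, TCATGTG, in several of their promoters. RefSeq promoters (build GRCh38.p14, 250 bases before to 50 after the start) were matched for 14230 of the genes tested and for 26 of the 34 measured melanosome genes. The motif, on either strand, stood in 6 of the 26 (23.1%), against 2.19% of all 14230. Of the 18 members called up with a promoter, 4 held it, TYR, TYRP1, SLC24A5 and GPNMB, and so did GPR143 and BLOC1S3, which were not called. The last 150 bases before the start of the 4 are shown, 5′ to 3′ on the gene's strand, to let the motif (capitals, on either strand) be seen beside changes of 0.45, 3.26, 0.71 and 0.77. TYR lies at chr11:89177725-89177874 (plus strand), TYRP1 at chr9:12693235-12693384 (plus strand), SLC24A5 at chr15:48120840-48120989 (plus strand) and GPNMB at chr7:23246625-23246774 (plus strand).
TYR: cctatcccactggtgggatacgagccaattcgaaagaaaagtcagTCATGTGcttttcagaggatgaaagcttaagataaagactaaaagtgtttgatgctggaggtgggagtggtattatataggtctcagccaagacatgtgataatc
TYRP1: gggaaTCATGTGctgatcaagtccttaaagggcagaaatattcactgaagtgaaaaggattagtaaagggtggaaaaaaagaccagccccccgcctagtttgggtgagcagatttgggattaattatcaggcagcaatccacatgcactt
SLC24A5: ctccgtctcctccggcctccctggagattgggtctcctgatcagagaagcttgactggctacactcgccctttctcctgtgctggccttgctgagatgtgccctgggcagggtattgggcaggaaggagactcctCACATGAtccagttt
GPNMB: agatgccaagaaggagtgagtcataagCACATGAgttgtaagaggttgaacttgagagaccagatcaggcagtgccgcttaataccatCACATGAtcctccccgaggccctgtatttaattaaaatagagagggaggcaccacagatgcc
The changes of the 4 genes ranged from 0.45 to 3.26 with the same motif present. A match describes the letters and is not a measured binding site.

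Genes of the undifferentiated and invasive melanoma state fell. Of 34 measured members of the 38 listed, 24 fell and 3 rose, with a median of -0.47, and 12 fell at least 2-fold. The collagenase MMP1 averaged 12.12 ± 0.100 (SD, n = 3) with DMSO and read 9.76, 9.72 and 9.69 with vemurafenib (-2.39 ± 0.080), the urokinase receptor PLAUR 8.91, 9.01 and 8.83 with DMSO and 6.66, 6.81 and 6.82 with vemurafenib (-2.15 ± 0.065), and integrin alpha 3, ITGA3, 10.03, 10.06 and 10.13 with DMSO and 8.20, 8.14 and 8.32 with vemurafenib (-1.85 ± 0.051). Together with CXCL8, NT5E, DKK1, INHBA and AXL above these are the 8 largest changes of the list, and all 8 are falls. Tenascin C, TNC (-1.22 ± 0.043), IL1B (-1.22 ± 0.062), THBS1 (-0.76 ± 0.053), N-cadherin, CDH2 (-0.47 ± 0.043), and lysyl oxidase, LOX (-0.28 ± 0.045), fell. FOXF2 (0.68 ± 0.070), MMP14 (0.27 ± 0.068) and fibronectin, FN1 (0.23 ± 0.044), rose. Neural crest and Schwann cell markers gave no common direction by count. Among 22, 7 fell (31.82% against 12.5% over all genes) and 5 rose (22.73% against 14.6%). By at least 2-fold, 3 rose and 0 fell, and CRYAB rose most (3.21 ± 0.14). L1CAM read 5.92, 6.0 and 6.20 with DMSO and 7.25, 7.30 and 7.31 with vemurafenib (1.25 ± 0.071) and NCAM1 rose (0.44 ± 0.077), while CDH19 (-0.82 ± 0.076), SEMA3B (-0.76 ± 0.043), TSPAN7 (-0.66 ± 0.062) and nestin, NES (-0.60 ± 0.077), fell.

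**Figure D3:**
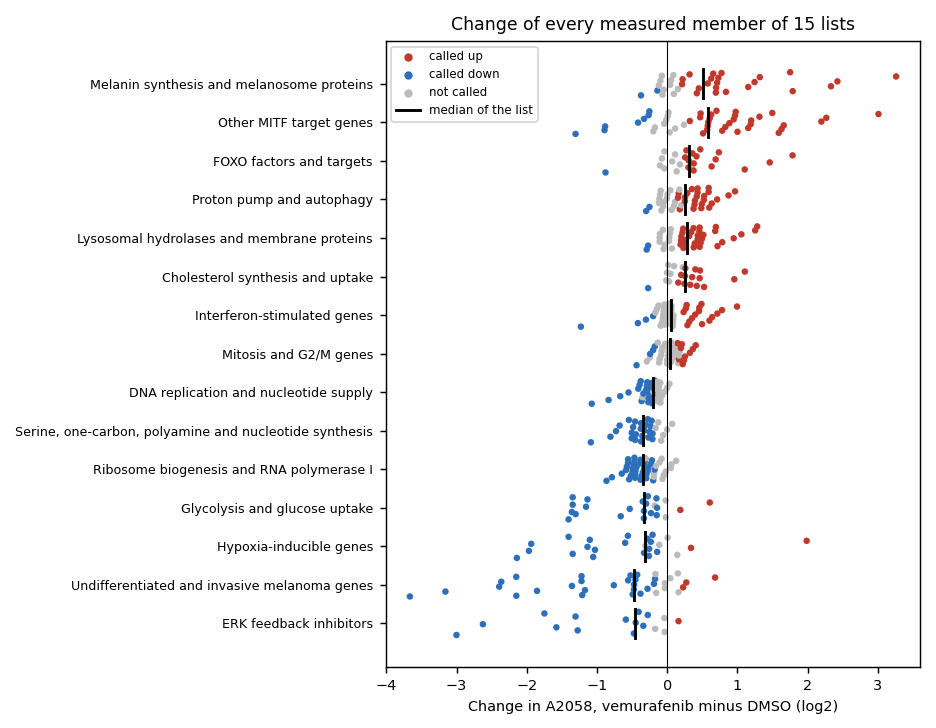
Change in A2058, vemurafenib minus DMSO in log2 (x axis), of every measured member of 15 gene lists, 1 point per gene, red where called up, blue where called down and grey where not called; black bars are list medians. The melanosome, MITF target, FOXO, lysosomal and proton pump lists lie mostly to the right (medians of 0.25 to 0.58), while the ERK feedback and undifferentiated lists have medians of -0.46 and -0.47 with tails beyond -3.

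Genes of entry into the cell cycle fell more often than they rose. In the list of G1 cyclins, kinases, E2F factors and CDK inhibitors, 13 of 30 fell and 5 rose (3 rose without A2058 DMSO replicate 1 or 2 or A2058 vemurafenib replicate 2 or 3). Cyclin D1, CCND1, read 9.97, 10.15 and 10.09 with DMSO and 7.62, 7.63 and 7.66 with vemurafenib (-2.43 ± 0.057, 5.4-fold lower), and its partner kinase CDK6 9.23, 9.09 and 9.26 with DMSO and 7.95, 8.09 and 7.96 with vemurafenib (-1.19 ± 0.076). CDKN2B, an inhibitor of that kinase, read 8.30, 8.17 and 8.49 with DMSO and 6.25, 6.27 and 6.32 with vemurafenib (-2.04 ± 0.093). The kinase, its cyclin and its inhibitor thus all fell, without overlap between the groups. E2F5 (-1.39 ± 0.12), CDC25A (-0.61 ± 0.062), CCNE1 (-0.43 ± 0.065), E2F3 (-0.27 ± 0.062), E2F4 (-0.26 ± 0.052) and E2F8 (-0.26 ± 0.059) fell, and CDKN1B, the inhibitor p27, rose from 8.49, 8.65 and 8.53 to 9.07, 9.04 and 8.98 (0.47 ± 0.052). RB1 (0.026) and CCND3 (-0.10) were not called.

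DNA replication genes fell by small amounts, 25 of 44 with no rise and a median of -0.20. GINS4, of the replicative helicase, read 7.37, 7.32 and 7.57 with DMSO and 6.42, 6.26 and 6.37 with vemurafenib (-1.07 ± 0.067), the licensing factor CDC6 9.23, 8.92 and 9.26 with DMSO and 8.28, 8.35 and 8.27 with vemurafenib (-0.83 ± 0.13), and the ribonucleotide reductase subunit RRM2 8.77, 8.66 and 8.84 with DMSO and 8.08, 8.13 and 8.05 with vemurafenib (-0.67 ± 0.083). CDC45 (-0.55 ± 0.063), ORC1 (-0.41 ± 0.075), MCM10 (-0.38 ± 0.055), UNG (-0.36 ± 0.056) and MCM2 (-0.25 ± 0.040) fell. Against a null of 1.2-fold rather than 0, 4 of the 44 were still called. PCNA (-0.030), MCM4 (0.033) and RRM1 (-0.070) were not called. The E2F site TTTCCCGC, searched on both strands, stood in 12 of 41 promoters of this list (29.3%), against 2.25% of all, and in 7 of the 24 called down with a promoter. Windows of 30 bases around it are shown for 3 of these, on the gene's strand with the motif in capitals: UHRF1, an epigenetic adaptor at replication forks (-0.39, or -0.185 when its probe sets were averaged), at chr19:4909476-4909505 (plus strand), the helicase subunit MCM7 (-0.27) at chr7:100101566-100101595 (minus strand) and the licensing factor CDT1 (-0.25) at chr16:88803743-88803772 (plus strand).
UHRF1: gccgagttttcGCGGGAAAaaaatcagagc
MCM7: cagctcggaccGCGGGAAAcccggcgcctg
CDT1: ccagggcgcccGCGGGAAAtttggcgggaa
Holders of the site were also found among members not called, such as MCM3 (-0.096) and PCNA.

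Mitotic and G2/M genes changed by small amounts, with a median of 0.045. Among 44, 10 rose (22.73% against 14.6% over all genes) and 4 fell (9.09% against 12.5%). MKI67, the proliferation antigen, read 9.45, 9.38 and 9.42 with DMSO and 9.45, 9.43 and 9.29 with vemurafenib, groups that overlap (-0.028 ± 0.059, adjusted p = 0.839), and its sign turned without A2058 vemurafenib replicate 3 (0.023) and after quantile normalization (0.014). CDC25B read 8.08, 8.15 and 8.17 with DMSO and 8.51, 8.54 and 8.57 with vemurafenib (0.41 ± 0.042), and KIF20A (0.37 ± 0.056), CENPF (0.32 ± 0.047), ASPM (0.25 ± 0.056) and FOXM1 (0.22 ± 0.047) rose. UBE2S (-0.44 ± 0.053), HJURP (-0.24 ± 0.046), CDC20 (-0.20 ± 0.043) and PLK1 (-0.18 ± 0.038) fell. CCNB1 (0.019) was not called. These counts leaned on single arrays: 5 rose and 7 fell without A2058 DMSO replicate 2, and 5 rose without A2058 vemurafenib replicate 1.

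Regulators of apoptosis moved on both sides of the balance. Of 20 BCL2 family genes, 6 rose (30% against 14.6% over all genes) and 4 fell (20% against 12.5%). PMAIP1, the gene of the killer protein NOXA, read 9.30, 9.16 and 9.35 with DMSO and 6.63, 6.70 and 6.68 with vemurafenib (-2.60 ± 0.055, 6.06-fold lower). BMF, another BH3-only killer, read 5.64, 5.84 and 5.58 with DMSO and 7.54, 7.35 and 7.06 with vemurafenib (1.63 ± 0.10), and BCL2L11, the gene of BIM, 5.65, 5.77 and 5.71 with DMSO and 6.71, 6.4 and 6.55 with vemurafenib (0.84 ± 0.064). Of these 3 killers 1 fell and 2 rose, with no overlap of the groups. The survival genes BCL2A1 and MCL1 moved in opposite directions, up and down (-0.33 ± 0.064). BNIP3 (-1.03 ± 0.074) fell, BOK (0.50 ± 0.090) and BAK1 (0.21 ± 0.054) rose, and BAX (0.0031) and BCL2L1 (-0.020) were not called. Among 28 p53 targets, 8 fell (28.57% against 12.5% over all genes) and 7 rose (25% against 14.6%). Without A2058 DMSO replicate 1, 4 rose. TP53INP1 read 6.86, 6.86 and 6.91 with DMSO and 9.23, 9.25 and 9.23 with vemurafenib, ZMAT3 rose (0.62 ± 0.064), and the death receptor TNFRSF10B (-1.06 ± 0.052), PHLDA3 (-0.52 ± 0.081), AEN (-0.42 ± 0.066) and MDM2 (-0.31 ± 0.060) fell.

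Glycolysis genes fell. Of 23 measured, 18 fell and 2 rose, with a median of -0.33, and 7 fell at least 2-fold. PDK1, a pyruvate dehydrogenase kinase that limits the use of pyruvate in the TCA cycle, read 9.86, 9.79 and 9.91 with DMSO and 8.43, 8.46 and 8.45 with vemurafenib (-1.40 ± 0.049). The glucose transporter SLC2A3 read 8.68, 8.73 and 8.73 with DMSO and 7.47, 7.33 and 7.30 with vemurafenib (-1.35 ± 0.053), and hexokinase 2, HK2, 9.42, 9.61 and 9.62 with DMSO and 8.20, 8.30 and 8.24 with vemurafenib (-1.30 ± 0.068). These are regulated steps of uptake, first phosphorylation and diversion of pyruvate. PFKFB3 (-1.36 ± 0.064) and PFKFB4 (-1.35 ± 0.078), which make the activator of phosphofructokinase, enolase 2, ENO2 (-1.16 ± 0.046), and the transporter SLC2A1 (-1.14 ± 0.041) fell over 2-fold. The housekeeping enzymes fell by less, GPI by 0.35 ± 0.045, PGK1 by 0.33 ± 0.039, LDHA by 0.33 ± 0.054 and PKM by 0.23 ± 0.037. PFKFB2 rose (0.61 ± 0.095), and the rise of PFKM (0.19 ± 0.048) was lost without A2058 DMSO replicate 1 or A2058 vemurafenib replicate 1 (adjusted p up to 0.0537), leaving 1 rise. ALDOC (-0.18), LDHB (-0.022) and SLC2A12 (-0.021) were not called, though ALDOC passed without A2058 vemurafenib replicate 2.

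Hypoxia-inducible genes, which overlap the glycolysis list, fell in 18 of 24 cases and rose in 2, with a median of -0.32. The secreted hormone STC1 read 6.74, 6.80 and 6.5 with DMSO and 4.59, 4.42 and 4.61 with vemurafenib (-2.14 ± 0.085), and NDRG1 10.21, 10.17 and 10.21 with DMSO and 8.24, 8.25 and 8.19 with vemurafenib (-1.97 ± 0.037, adjusted p = 3.15e-12). ANGPTL4 (-1.10 ± 0.068), the collagen hydroxylase subunit P4HA1 (-1.05 ± 0.097), EGLN1 (-0.60 ± 0.054) and HILPDA (-0.56 ± 0.071) fell. The oxygen-regulated subunits themselves parted: HIF1A read 11.43, 11.31 and 11.40 with DMSO and 11.08, 11.05 and 11.01 with vemurafenib (-0.33 ± 0.069), while EPAS1, the gene of HIF-2 alpha, rose from 6.20, 6.39 and 6.27 to 8.32, 8.38 and 8.12 (1.99 ± 0.074, 3.96-fold). ARNT, the partner of both, rose (0.34 ± 0.041). ADM (-0.31), EGLN3 (0.14), KDM3A (-0.11) and CA12 (0.0064) were not called; ADM passed without A375 vemurafenib replicate 1 or 3.

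The list of TCA cycle, respiratory chain and related genes had shares near those of all genes, 7 rises and 5 falls among 43. Its median change was 0.0063. PPARGC1A, a coactivator and no enzyme of the cycle, led the rises. The isocitrate dehydrogenase IDH2 followed, at 8.81, 8.77 and 8.79 with DMSO and 9.39, 9.38 and 9.45 with vemurafenib (0.62 ± 0.050). Its cytosolic relative IDH1 rose by 0.51 ± 0.069. CYC1 (-0.21 ± 0.038) and UQCRC1 (-0.18 ± 0.040) fell. No chain subunit changed 2-fold.

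Sterol genes rose: of 22 measured members of the 28 listed, 14 rose and 1 fell, with a median of 0.25. HMGCS1, at the start of the pathway, read 8.20, 8.17 and 8.31 with DMSO and 9.39, 9.37 and 9.23 with vemurafenib (1.11 ± 0.062), and lanosterol synthase, LSS, 7.59, 7.46 and 7.50 with DMSO and 8.47, 8.52 and 8.43 with vemurafenib (0.96 ± 0.046). SC5D (0.53 ± 0.085), MSMO1 (0.47 ± 0.11), the lysosomal carrier NPC2 (0.46 ± 0.043), MVD (0.42 ± 0.093), the regulator SREBF2 (0.40 ± 0.043), IDI1 (0.36 ± 0.049), EBP (0.33 ± 0.058) and INSIG1 (0.25 ± 0.056) rose, and NPC1 (-0.27 ± 0.052) fell. Fatty acid genes had 14 rises and 6 falls among 35. The prostaglandin dehydrogenase HPGD (1.19 ± 0.092), the fatty acid transporter CD36 (0.88 ± 0.14), LPIN1 (0.76 ± 0.040), the desaturase SCD (0.72 ± 0.077) and the mitochondrial import enzyme CPT1A (0.54 ± 0.052) rose. Fatty acid synthase, FASN, read 9.32, 9.41 and 9.36 with DMSO and 8.65, 8.59 and 8.65 with vemurafenib (-0.73 ± 0.048), and its regulator SREBF1 (-0.39 ± 0.045) fell. The sterol regulator and the fatty acid regulator of the SREBP family therefore moved in opposite directions.

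Lysosomal genes rose more often than those of any other list. Of 42 measured members of the 47 listed, 29 rose and 2 fell, with a median of 0.28 (0.25 to 0.29 over the 6 fits that left out an A2058 array). Cathepsin K, CTSK, read 8.15, 8.22 and 8.13 with DMSO and 9.45, 9.44 and 9.47 with vemurafenib (1.28 ± 0.092), acid sphingomyelinase, SMPD1, 7.82, 7.89 and 7.82 with DMSO and 9.20, 9.10 and 8.99 with vemurafenib (1.25 ± 0.054), and cathepsin F, CTSF, 6.35, 6.35 and 6.41 with DMSO and 7.39, 7.51 and 7.37 with vemurafenib (1.06 ± 0.045). Those 3 were the members that rose over 2-fold. Acid ceramidase, ASAH1 (0.95 ± 0.053), the chloride exchanger CLCN7 (0.78 ± 0.050), the Tay-Sachs enzyme HEXA (0.72 ± 0.059), CTSH (0.69 ± 0.058), TPP1 (0.68 ± 0.039), CTSD (0.48 ± 0.040) and the membrane protein LAMP1 (0.44 ± 0.055) rose by less. CTSL (-0.29 ± 0.060) and NPC1 fell. Genes of the proton pump and of autophagy rose in 24 of 41 cases and fell in 2 (4 without A2058 vemurafenib replicate 3), with a median of 0.25. The RAG GTPases that seat mTOR complex 1 on the lysosome, RRAGD, at 8.38, 8.32 and 8.35 with DMSO and 9.34, 9.31 and 9.31 with vemurafenib (0.97 ± 0.058), and RRAGC (0.87 ± 0.054) rose, as did their regulators FLCN (0.49 ± 0.042), FNIP1 (0.59 ± 0.076) and FNIP2 (0.59 ± 0.079), the pump subunits ATP6V1C1 (0.71 ± 0.077), ATP6V1A (0.53 ± 0.047) and ATP6V1H (0.52 ± 0.053), and the autophagy starters ULK1 (0.42 ± 0.079), ULK2 (0.64 ± 0.052) and ATG14 (0.60 ± 0.084). ATG5 (-0.30 ± 0.077) and WIPI1 (-0.25 ± 0.041) fell.

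Promoters of lysosomal genes are known to carry an E-box, TCACGTGA, which MITF and TFEB family factors bind. It stood in 5 of 30 lysosomal promoters in RefSeq (16.7%), against 1.48% of all 14230, and all 5 belonged to the 20 members called up with a promoter: CTSA, GAA, GALNS, LAMP1 and MCOLN1. The motif is its own reverse complement and contains the shorter E-box CACGTG. The last 100 bases before the start are shown for 4 of them, with the motif in capitals, beside changes of 0.52 for the protective cathepsin A, 0.38 for acid glucosidase, 0.44 and 0.49 for a lysosomal calcium channel. CTSA lies at chr20:45891235-45891334 (plus strand), GAA at chr17:80101481-80101580 (plus strand), LAMP1 at chr13:113297139-113297238 (plus strand) and MCOLN1 at chr19:7522524-7522623 (plus strand).
CTSA: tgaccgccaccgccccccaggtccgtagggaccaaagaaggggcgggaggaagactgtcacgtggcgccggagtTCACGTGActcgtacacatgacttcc
GAA: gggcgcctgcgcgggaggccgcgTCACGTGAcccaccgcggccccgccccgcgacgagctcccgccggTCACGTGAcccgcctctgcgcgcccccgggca
LAMP1: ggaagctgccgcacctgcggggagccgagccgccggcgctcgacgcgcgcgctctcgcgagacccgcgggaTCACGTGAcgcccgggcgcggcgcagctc
MCOLN1: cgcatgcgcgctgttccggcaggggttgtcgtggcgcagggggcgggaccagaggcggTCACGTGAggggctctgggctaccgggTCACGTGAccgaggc
GAA and MCOLN1 held the motif 2 times in this window, and their changes were no larger than that of CTSA, which held it once.

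Building blocks of growth fell. Of 30 genes of serine, one-carbon, polyamine and nucleotide synthesis, 24 fell and none rose, with a median of -0.34. The mitochondrial folate enzyme MTHFD2 read 9.44, 9.31 and 9.45 with DMSO and 8.33, 8.28 and 8.34 with vemurafenib (-1.09 ± 0.057), asparagine synthetase, ASNS, 7.09, 6.94 and 6.83 with DMSO and 6.24, 6.0 and 6.19 with vemurafenib (-0.81 ± 0.074), and ornithine decarboxylase, ODC1, 8.49, 8.36 and 8.42 with DMSO and 7.66, 7.56 and 7.86 with vemurafenib (-0.73 ± 0.074). MTHFD1L (-0.68 ± 0.079), IMPDH2 (-0.55 ± 0.039), AMD1 (-0.51 ± 0.045), the purine enzymes PPAT (-0.49 ± 0.073), PAICS (-0.46 ± 0.052) and GART (-0.45 ± 0.057), the pyrimidine enzyme DHODH (-0.46 ± 0.070) and the serine enzyme PHGDH (-0.35 ± 0.043) fell by less than 2-fold. Among 23 amino acid transporters, 7 fell (30.43% against 12.5% over all genes) and 6 rose (26.09% against 14.6%). The cystine importer SLC7A11 read 10.67, 10.62 and 10.74 with DMSO and 9.10, 9.01 and 9.03 with vemurafenib (-1.62 ± 0.054), SLC38A1 (-1.19 ± 0.084), the arginine importer SLC7A1 (-1.09 ± 0.057) and the glutamine carrier SLC1A5 (-0.87 ± 0.044) fell, and SLC38A9 (0.56 ± 0.11), a lysosomal arginine sensor, SLC1A4 (0.51 ± 0.044) and SLC7A5 (0.41 ± 0.045) rose.

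Ribosome biogenesis fell in 34 of 46 measured genes with no rise, and a median of -0.34. MRTO4, an assembly factor of the large subunit, read 7.84, 7.86 and 7.78 with DMSO and 7.04, 6.91 and 6.95 with vemurafenib (-0.86 ± 0.056), the RNA polymerase I subunit POLR1B 8.49, 8.44 and 8.52 with DMSO and 7.76, 7.67 and 7.66 with vemurafenib (-0.79 ± 0.050), and dyskerin, DKC1, 8.32, 8.39 and 8.43 with DMSO and 7.84, 7.73 and 7.63 with vemurafenib (-0.65 ± 0.057). All 34 falls were smaller than 2-fold, and 17 of the 46 were called against a null of 1.2-fold. RRP12 (-0.59 ± 0.051), WDR43 (-0.57 ± 0.049), TSR1 (-0.56 ± 0.082), NOL6 (-0.54 ± 0.062), BYSL (-0.49 ± 0.045) and fibrillarin, FBL (-0.38 ± 0.058), fell, while POLR1A (-0.067) and UBTF (0.061) were not called. The short E-box CACGTG, bound by MYC with MAX and by MITF family factors, stood in 15 of 39 promoters of this list (38.5%), against 8.88% of all, and in 12 of the 29 called down with a promoter. Windows of 30 bases around it are shown for the 4 with the largest falls among its holders, MRTO4 at chr1:19251807-19251836 (plus strand), WDR43 at chr2:28894658-28894687 (plus strand), NOL6 at chr9:33473894-33473923 (minus strand) and MYBBP1A (-0.52) at chr17:4555340-4555369 (minus strand), on the gene's strand with the motif in capitals.
MRTO4: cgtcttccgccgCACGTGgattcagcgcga
WDR43: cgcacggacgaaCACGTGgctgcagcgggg
NOL6: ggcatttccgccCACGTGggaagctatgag
MYBBP1A: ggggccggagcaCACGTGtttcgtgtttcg
The E-box of lysosomal genes contains these same 6 bases, and the lists that hold them moved in opposite directions.

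Translation genes fell more often than they rose, by small amounts. Of 27 translation factors, 11 fell and 1 rose (2 rose without A2058 DMSO replicate 3 or A375 vemurafenib replicate 1); the cap-binding repressor EIF4EBP1 fell most, at 9.50, 9.42 and 9.58 with DMSO and 8.58, 8.50 and 8.57 with vemurafenib (-0.95 ± 0.061), and its relative EIF4EBP2 was the 1 that rose (0.37 ± 0.050). Of 34 aminoacyl-tRNA synthetases, 20 fell and 3 rose. YARS1 (-0.66 ± 0.068), GARS1 (-0.54 ± 0.047), MARS1 (-0.53 ± 0.037) and EPRS1 (-0.45 ± 0.053), which charge tRNA in the cytoplasm, fell, and the mitochondrial enzymes HARS2 (0.43 ± 0.097) and NARS2 (0.32 ± 0.065) rose. Mitochondrial ribosome proteins had 14 falls and 1 rise among 35 (2 rises without A375 vemurafenib replicate 1 or 3), led by MRPS30 (-0.44 ± 0.062) and MRPL3 (-0.38 ± 0.050), none of which was called against a null of 1.2-fold.

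Stress programs shifted in part. In the ATF4 and unfolded protein list 15 of 34 fell and 4 rose. EDEM1, of endoplasmic reticulum quality control, read 8.98, 8.95 and 8.98 with DMSO and 8.01, 8.02 and 8.17 with vemurafenib (-0.91 ± 0.052), CEBPB (-0.83 ± 0.052), XBP1 (-0.58 ± 0.057), TRIB3 (-0.40 ± 0.075) and the chaperone HSPA5 (-0.29 ± 0.051) fell, and NUPR1 (0.40 ± 0.058), SEL1L (0.33 ± 0.052), HERPUD1 (0.32 ± 0.057) and EIF2AK3 (0.24 ± 0.049) rose. ATF4 fell by its brighter probe set (-0.46 ± 0.035), but its probe sets averaged gave 0.13 (adjusted p = 0.105). Of 31 chaperones, 11 fell (35.48% against 12.5% over all genes) and 5 rose (16.13% against 14.6%). Folding factors fell by small amounts, FKBP4 (-0.72 ± 0.048), BAG3 (-0.53 ± 0.041), CCT2 (-0.43 ± 0.052) and HSPD1 (-0.37 ± 0.046), and HSPA4L by more (-1.21 ± 0.080). Against these, beside CRYAB, the HSP70 relatives HSPA2, at 7.63, 7.78 and 7.72 with DMSO and 9.50, 9.53 and 9.52 with vemurafenib (1.81 ± 0.058), and HSPA12A (1.34 ± 0.072) rose. Among 35 NRF2 targets and antioxidant genes, 10 fell (28.57% against 12.5% over all genes) and 6 rose (17.14% against 14.6%). After SLC7A11, MGST1 (-0.73 ± 0.11), ME1 (-0.56 ± 0.052) and SRXN1 (-0.55 ± 0.044) fell. HMOX1 (0.49 ± 0.079) and ferritin light chain, FTL (0.32 ± 0.054), rose.

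Genes of attachment to the matrix fell more often than they rose, 19 against 5 among 39. ITGA3 fell from 10.03, 10.06 and 10.13 to 8.20, 8.14 and 8.32, and ITGB8 (-0.98 ± 0.058), ITGB3 (-0.89 ± 0.036), SDC3 (-0.83 ± 0.045), ICAM1 (-0.75 ± 0.043), ITGA6 (-0.58 ± 0.054) and ITGA5 (-0.57 ± 0.041) fell. L1CAM, ALCAM (0.72 ± 0.047) and NCAM1, adhesion proteins of the immunoglobulin family, rose, as did TLN1 (0.23 ± 0.052) and CD44 (0.20 ± 0.044), while the common beta 1 chain, ITGB1 (0.016), was not called. Matrix proteins split, with a median of 0.00021. Among 47, 12 fell (25.53% against 12.5% over all genes) and 10 rose (21.28% against 14.6%). Tenascin C, named above, fell, the laminin chain LAMA4 read 9.96, 9.92 and 9.99 with DMSO and 8.89, 8.86 and 8.78 with vemurafenib (-1.11 ± 0.049), and matrilin 2, MATN2, 7.75, 7.80 and 7.77 with DMSO and 9.36, 9.24 and 9.22 with vemurafenib (1.5 ± 0.048). THBS2 (-1.04 ± 0.057), LAMB3 (-1.01 ± 0.089), EFEMP1 (-0.91 ± 0.069) and versican, VCAN (-0.84 ± 0.048), fell, and fibrillin 1, FBN1 (0.89 ± 0.060), perlecan, HSPG2 (0.65 ± 0.045), and nidogen 1, NID1 (0.49 ± 0.037), rose.

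Among 39 proteases and inhibitors, 14 fell (35.9% against 12.5% over all genes) and 7 rose (17.95% against 14.6%). The acute phase inhibitor SERPINA3 read 8.07, 8.10 and 8.28 with DMSO and 6.03, 5.90 and 5.80 with vemurafenib (-2.24 ± 0.069), and ADAM19 (-1.61 ± 0.074), MMP16 (-1.55 ± 0.072), SERPINE2 (-0.78 ± 0.054) and TIMP1 (-0.49 ± 0.042) fell. A2M read 5.97, 6.07 and 6.05 with DMSO and 8.74, 8.75 and 8.70 with vemurafenib, and MMP2 (0.89 ± 0.036) and TIMP2 (0.73 ± 0.043), which act together at the cell surface, rose. The collagenase MMP1 and the gelatinase MMP2 therefore moved apart. Among 42 actin and SRF-driven genes, 14 fell (33.33% against 12.5%) and 7 rose (16.67% against 14.6%). Alpha actinin 1, ACTN1, read 11.13, 11.15 and 11.17 with DMSO and 10.33, 10.38 and 10.37 with vemurafenib (-0.79 ± 0.036), and the tropomyosins TPM1 (-0.52 ± 0.045) and TPM2 (-0.47 ± 0.042) fell, as did ACTA2, smooth muscle alpha actin (-0.24 ± 0.046), while ACTG2 (0.81 ± 0.12), TAGLN (0.73 ± 0.066) and CALD1 (0.63 ± 0.066) rose.

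Several inflammatory signals fell. Of 38 chemokine and cytokine genes, 9 fell (23.68% against 12.5% over all genes) and 5 rose (13.16% against 14.6%). Beside CXCL8, the prostaglandin synthase PTGS2 read 7.83, 7.87 and 7.91 with DMSO and 6.19, 6.25 and 6.27 with vemurafenib (-1.64 ± 0.044), and CXCL1, whose probes can be shared with CXCL2 and CXCL3, 9.28, 9.33 and 9.33 with DMSO and 7.86, 7.75 and 7.90 with vemurafenib (-1.47 ± 0.052). IL1B (-1.22 ± 0.062), LIF (-0.92 ± 0.071), CCL2 (-0.54 ± 0.085), CCL20 (-0.50 ± 0.064) and CXCL16 (-0.43 ± 0.088) fell, IL16 (1.01 ± 0.067) rose most, and TNF (-0.036) was not called. NF-kB subunits and feedback genes had 10 falls and 5 rises among 23 (3 rises without A2058 DMSO replicate 1 or A2058 vemurafenib replicate 3). NFKB2 (-0.56 ± 0.048), TNFAIP3 (-0.53 ± 0.054), NFKB1 (-0.31 ± 0.061) and BIRC2 (-0.51 ± 0.071) fell, and REL (0.44 ± 0.075) and NFKBIA (0.28 ± 0.049) rose.

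Interferon-stimulated genes changed mostly by small amounts in A2058, with a median of 0.048 and no rise of 2-fold. Of 47, 16 rose (34.04% against 14.6% over all genes) and 4 fell (8.51% against 12.5%). The falls were 2 without any 1 of A2058 DMSO replicate 2 or 3, A2058 vemurafenib replicate 3, A375 DMSO replicate 2 or A375 vemurafenib replicate 3. SAMD9L read 7.55, 7.43 and 7.65 with DMSO and 8.53, 8.54 and 8.53 with vemurafenib (0.99 ± 0.081), and SAMD9 (0.78 ± 0.065), IRF9 (0.72 ± 0.042), MX2 (0.64 ± 0.045) and IFI6 (0.60 ± 0.038) rose. GBP2 fell from 6.48, 6.63 and 6.58 to 5.41, 5.35 and 5.25 (-1.23 ± 0.095). ISG15 (0.083), OAS1 (-0.020) and IFI44L (-0.00031) were not called. In the antigen presentation list 13 of 23 fell and 4 rose (2 without A2058 DMSO replicate 1 or 3 or A2058 vemurafenib replicate 2). The class II genes HLA-DMB, at 8.92, 9.01 and 8.95 with DMSO and 7.57, 7.58 and 7.43 with vemurafenib (-1.44 ± 0.056), HLA-DMA (-0.75 ± 0.040), HLA-DPA1 (-0.68 ± 0.059) and HLA-DPB1 (-0.58 ± 0.036) fell, although probes can be shared within this family, and B2M rose (0.23 ± 0.043).

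Among 35 surface proteins read by immune cells, 9 fell (25.71% against 12.5% over all genes) and 6 rose (17.14% against 14.6%). Beside NT5E, CD200 read 9.96, 9.82 and 9.90 with DMSO and 8.86, 9.04 and 8.75 with vemurafenib (-1.01 ± 0.070), and NECTIN3 (-0.98 ± 0.064), the complement inhibitor CD55 (-0.80 ± 0.054) and the NK and T cell ligand PVR (-0.71 ± 0.054) fell. TNFRSF14, at 7.22, 7.30 and 7.36 with DMSO and 8.68, 8.60 and 8.19 with vemurafenib (1.2 ± 0.14), the phagocyte checkpoint receptor SIRPA (0.98 ± 0.11) and its ligand CD47 (0.36 ± 0.080) rose. CD274, the gene of PD-L1, was not called (-0.0067).

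Ion channels, synaptic and axon guidance genes and transporters moved in both directions. Over all genes 14.6% were called up and 12.5% down. The shares were 20.37% up and 12.96% down for channels and 21.15% up and 17.31% down for synaptic and guidance genes. For ABC transporters they were 21.43% up and 17.86% down. Of 54 channels, 11 rose and 7 fell; KCNN4, a calcium-activated potassium channel, read 7.89, 7.84 and 7.85 with DMSO and 5.30, 5.32 and 5.62 with vemurafenib (-2.45 ± 0.073), opposite to P2RX7 and KCNJ13, and P2RX4 rose (0.98 ± 0.050). Of 52 synaptic and guidance genes, 11 rose and 9 fell. The semaphorin receptor PLXNC1 read 4.81, 4.88 and 4.73 with DMSO and 6.88, 6.67 and 6.94 with vemurafenib (2.02 ± 0.063), and PLXNA1 (0.75 ± 0.055), PLXNB1 (0.73 ± 0.046) and PLXND1 (0.67 ± 0.043) rose with it. SEMA3A, a secreted repellent, read 8.09, 7.96 and 8.16 with DMSO and 6.48, 6.5 and 6.34 with vemurafenib (-1.63 ± 0.11), and its receptor NRP1 9.72, 9.50 and 9.73 with DMSO and 8.42, 8.44 and 8.40 with vemurafenib (-1.23 ± 0.076). Plexins therefore rose while this ligand and the neuropilin fell. ABC transporters had 6 rises and 5 falls among 28, with ABCC3 lowest (-0.93 ± 0.063) and ABCB5, a marker of some melanoma cells, up (0.47 ± 0.044). Chromatin regulators rose in 15 of 46 cases and fell in 3, by small steps. SIRT2 read 8.35, 8.26 and 8.28 with DMSO and 9.16, 9.13 and 9.21 with vemurafenib (0.87 ± 0.045), HDAC5 (0.71 ± 0.066), ARID5B (0.67 ± 0.035), KAT2B (0.67 ± 0.049) and KDM5B (0.36 ± 0.052) rose, DNMT1 fell (-0.20 ± 0.038), and HMGA1 fell by more, at -1.06 ± 0.052, or -0.70 when its probe sets were averaged.

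A2058 and A375 did not respond alike. Each line was set against its own DMSO arrays, and the difference of the responses was tested in the same fit. It was called for 5434 genes (29.5%) and for 2975 of the 4991 genes called in A2058 (59.6%). In A375 itself 6816 genes (37%) were called. Of 3272 genes called in both lines, 2460 moved the same way and 812 the opposite way. The fits share no control arrays between the lines, but share 1 estimate of spread per gene.

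Pigment genes were among those that differed between the lines. The melanosome list had a median change of 0.51 in A2058 and 0.015 in A375, and the difference was called for 20 of its 34 members. For TYRP1 the A2058 response exceeded that of A375 (0.38 ± 0.13) by 2.88 ± 0.19 (adjusted p = 1.51e-07). PMEL (0.078 ± 0.055 in A375, difference 2.35 ± 0.078), MLANA (0.10 ± 0.047, difference 2.23 ± 0.066), KIT (-0.014 ± 0.047, difference 2.97 ± 0.066) and KCNJ13 (0.020 ± 0.073, difference 2.99 ± 0.10) differed likewise. For MITF no difference passed the test: it changed by 0.73 ± 0.047 in A2058 and 0.73 ± 0.047 in A375, a difference of -0.0027 ± 0.066 (adjusted p = 0.987).

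Among genes called in both lines, the 8 largest differences in each direction were led on one side by genes that fell in A375. SYTL5, a Rab effector, changed by -5.24 ± 0.067 there and read 4.37, 4.51 and 4.5 with DMSO and 4.30, 4.27 and 4.23 with vemurafenib in A2058, near the lower end of the scale (-0.19 ± 0.067, difference 5.04 ± 0.094); its A2058 call (adjusted p = 0.0479) was lost without any 1 of 9 arrays, at adjusted p up to 0.1475 over the alternatives. FERMT1 (-0.39 ± 0.048 in A2058, -4.14 ± 0.048 in A375) and TINAGL1 (-1.07 ± 0.073 and -4.47 ± 0.073) fell in both; FERMT1 in A2058 read 4.76, 4.72 and 4.68 with DMSO and 4.38, 4.32 and 4.28 with vemurafenib, at the lower end of the scale like SYTL5. FBXO32 (1.10 ± 0.084 and -2.47 ± 0.084), the polyamine enzyme SAT1 (0.88 ± 0.096 and -2.65 ± 0.096), the scaffold AKAP12 (0.53 ± 0.044 and -2.97 ± 0.044), MYO1D (2.40 ± 0.10 and -0.65 ± 0.10) and A2M (2.70 ± 0.053 and -0.34 ± 0.053) rose in A2058 and fell in A375.

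On the other side stood genes that A375 raised strongly. The interferon-induced IFIT1 read 4.59, 4.54 and 4.76 with DMSO and 4.85, 4.88 and 4.99 with vemurafenib in A2058 (0.28 ± 0.057) against a change of 6.0 ± 0.057 in A375, and MX1 changed by 0.40 ± 0.053 and 4.55 ± 0.053. The interferon list had a median of 0.048 in A2058 and 2.96 in A375, and the difference was called for 44 of 47 members. The complement protease C1S (0.39 ± 0.052 and 5.29 ± 0.052) and ANGPTL7 (0.49 ± 0.073 and 4.44 ± 0.073) rose in both lines. The A2058 rises of C1S, ANGPTL7, IFIT1 and MX1 were not called against a null of 1.2-fold. TCN1 (-0.64 ± 0.052 and 5.0 ± 0.052), MMP1 (-2.39 ± 0.080 and 2.08 ± 0.080), DKK1 (-2.36 ± 0.089 and 2.01 ± 0.089) and ANK3 (-0.97 ± 0.066 and 3.15 ± 0.066) fell in A2058 and rose in A375. ERK readouts fell in both with sizes that differed: DUSP6 fell further in A2058 (difference -0.93 ± 0.077, adjusted p = 1.22e-06) and SPRY4 less far (difference 0.91 ± 0.085, adjusted p = 3.9e-06). MKI67 rose in A375 (0.36 ± 0.059) and was not called in A2058 (difference -0.39 ± 0.084, adjusted p = 0.00314). A375 vemurafenib replicate 1 correlated at 0.9939 and 0.9941 to both fellow arrays. Without it the difference was called for 6638 genes. Through the shared estimate of spread, the A2058 calls then numbered 5952, against 4991 with all arrays.

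**Figure D4:**
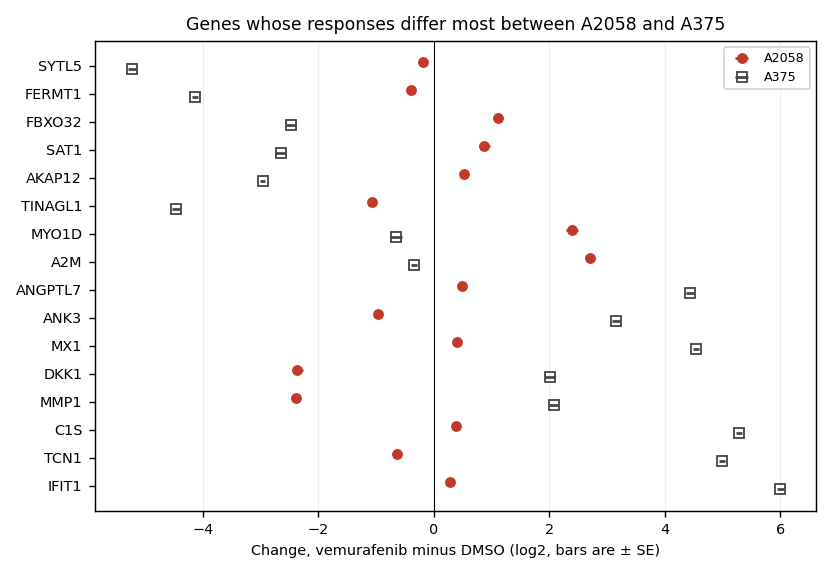
Change with vemurafenib in log2 (x axis, bars ± SE) in A2058 (filled circles) and A375 (open squares) for the 8 genes of each sign with the largest difference among genes called in both lines. The A2058 points lie between -2.39 and 2.70, while the A375 points reach -5.24 for SYTL5 and 6.0 for IFIT1; MYO1D, A2M, MMP1 and DKK1 are the 4 of these whose A2058 change exceeds 2.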

How the data were processed

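The 12 arrays (3 for each of A2058 and A375 with DMSO or vemurafenib) were deposited by the authors as log2 expression values per probe set, made from 100 ng of RNA per the labels. The submitters' processing notes name R 3.0.1 and affy; how background was corrected and probes summarised is not given in the sources used here, so no step before the deposited log2 values could be checked. Of 32321 probe sets, 19158 had 1 gene symbol, 1388 several and 11775 none, by GEO's platform annotation; 19128 were updated through Entrez IDs to RefSeq GRCh38.p14 symbols. Where a gene had more than 1 probe set (637 genes), the brightest by its mean on all 12 arrays stood for it, and no gene was removed for a low value. Values ran from 3.24 to 13.08, with array medians of 5.19 to 5.30, and were not renormalized.

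The fit of limma 3.58.1 in R 4.3.3 had 4 group means over the 12 arrays, 8 residual and 3.98 prior degrees of freedom, a null of 0 and Benjamini-Hochberg adjustment over 18404 genes. It was tested on simulated data. The members, gene lists, markers and motifs were chosen with earlier results of these data known. Genes named are the 15 largest rises and falls, up to 8 leading members of each list with those that moved against it, a short set of ERK, pigment and cell cycle readouts, and the 8 largest line differences of each sign; further list members, most of them textbook genes or members not called, were chosen after their values were seen. Alternatives were the 6 A2058 arrays alone, a replicate block, another prior, array weights, a null of 1.2-fold, averaged probe sets, quantile normalization, median centring, dim genes removed and each array left out.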

Additional observations from a re-analysis of the deposited data

Results flagged for a closer look

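For 2975 genes called in A2058 the response differed from that of A375, by limma's test of the difference of the responses in 1 fit (3 arrays per group, Benjamini-Hochberg over 18404 genes). The 16 genes with the largest differences, 8 of each sign among genes called in both lines, are given here as the A2058 change minus the A375 change in log2 ± SE.

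The A2058 response was above that of A375 by 5.04 ± 0.094 for SYTL5, 3.74 ± 0.068 for FERMT1, 3.58 ± 0.12 for FBXO32 and 3.53 ± 0.14 for SAT1. It was above by 3.50 ± 0.062 for AKAP12, 3.40 ± 0.10 for TINAGL1, 3.05 ± 0.15 for MYO1D and 3.04 ± 0.075 for A2M. The largest adjusted p of these 8 was that of MYO1D (8.12e-09).

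On the other side the difference was -5.72 ± 0.081 for IFIT1, -5.64 ± 0.073 for TCN1, -4.90 ± 0.073 for C1S and -4.47 ± 0.11 for MMP1. It was -4.38 ± 0.13 for DKK1, -4.15 ± 0.075 for MX1, -4.12 ± 0.093 for ANK3 and -3.95 ± 0.10 for ANGPTL7. IFIT1 and MX1 are interferon-stimulated genes, a list with a median change of 2.96 in A375 and 0.048 in A2058. SYTL5 and FERMT1 lay near the lower end of the scale in A2058 in both groups. IFIT1 (means of 4.63 with DMSO and 4.91 with vemurafenib), C1S (4.77 and 5.16) and ANGPTL7 (4.84 and 5.33) were also low there. Against a null of 1.2-fold the A2058 calls of SYTL5, FERMT1, IFIT1, MX1, C1S and ANGPTL7 were lost. Dixon's test for an outlying sample was not run, since each group had 3 arrays. Causes of these differences were not tested.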

How the results depend on the processing

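Against a null of 1.2-fold in place of 0, 1468 genes were called in A2058, 746 up and 722 down, and the difference from A375 was called for 2272; fewer pass by that test's construction. Under the other settings the counts stayed within 1.5 times those reported, from 4172 called (without A2058 DMSO replicate 1) to 6378 (array weights), with no shared call of opposite sign. Of the 4991 called genes, 3656 (73.25%) were called in all 20 alternatives with a null of 0, among them all 365 with a 2-fold change. MKI67, not called, turned sign with quantile normalization (0.014) and without A2058 vemurafenib replicate 3, and ran from -0.0586 to 0.0234 with 1 array left out. Deviations of same-numbered DMSO and vemurafenib arrays of A2058 correlated at 0.025, -0.027 and -0.199, and those of differently numbered arrays at -0.218 to 0.212. With 3 arrays per group the deviations are tied to each other, so these values cannot decide whether arrays were paired. The labels do not say. The replicate block called 4522 genes, 2439 up and 2083 down, of which 4457 were shared with those reported, and the difference for 4934. Median centring called 4662 genes, 48.01% of them up against 53.92%. Signal near background limits genes at the low end of the scale, for which a change has only a bound; 3 arrays per group and an unstated culture design limit the rest.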

Other observations

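The genes of these paragraphs stand in no gene list of the report, except that LYZ, PTPRC and CD3E are among its blood cell markers, and were chosen after their values were seen, so the counts describe the choice. Some genes best known from blood cells, picked here because they fell, were measured at means of 6.90 to 10.62 in A2058 with DMSO. Others rose, among them IL6R (1.02 ± 0.056) and PYCARD (1.02 ± 0.100), and of 12 blood cell markers 1 rose and 1 fell. LAPTM5, a lysosomal protein of lymphocytes, read 8.33, 8.52 and 8.40 with DMSO and 6.25, 6.33 and 6.37 with vemurafenib (-2.10 ± 0.060). PLA2G7, a secreted phospholipase of macrophages, read 8.61, 8.61 and 8.92 with DMSO and 5.96, 6.12 and 5.89 with vemurafenib (-2.72 ± 0.081), and MILR1, a mast cell receptor, changed by -2.50 ± 0.060. The lysozyme gene LYZ (-2.12 ± 0.10), EVI2B (-2.24 ± 0.080), the endotoxin receptor TLR4 (-1.73 ± 0.075), CTLA4 (-1.44 ± 0.072), LPXN (-1.42 ± 0.075), FLI1 (-1.27 ± 0.075) and CD96 (-1.19 ± 0.075) fell as well, 10 in all. PTPRC and CD3E, defining markers of leucocytes and T cells, read 4.15 and 4.67 with DMSO, near the 4.43 median of unnamed probe sets.

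Further rises included the kinase gene STK32A (2.18 ± 0.053), the matricellular gene CCN3 (1.99 ± 0.042), FSTL1 (1.86 ± 0.090), the developmental factors MEIS1 (1.62 ± 0.070), CITED1 (1.6 ± 0.091), ETS1 (1.40 ± 0.053) and RUNX1 (1.10 ± 0.054), LGI3 (1.61 ± 0.066), MFGE8 (1.43 ± 0.047) and the DNA-sensing adaptor STING1, which read 7.17, 7.24 and 7.19 with DMSO and 8.29, 8.19 and 8.33 with vemurafenib (1.07 ± 0.056). Further falls included TNFRSF12A, the receptor of TWEAK, at 9.76, 9.85 and 9.74 with DMSO and 7.14, 7.07 and 7.11 with vemurafenib (-2.68 ± 0.049), the sterol carrier GRAMD1B (-2.73 ± 0.052), the transglutaminase TGM2 (-2.35 ± 0.074) and the pentraxin PTX3 (-2.36 ± 0.059). The EGF receptor inhibitor ERRFI1 (-1.80 ± 0.061), the lipases LPL (-1.85 ± 0.072) and MGLL (-1.96 ± 0.063), claudin CLDN1 (-2.11 ± 0.097) and the Eyes absent factors EYA4 (-1.97 ± 0.078) and EYA1 (-1.33 ± 0.063) fell too. AK4, an adenylate kinase, fell by 2.19 ± 0.090, or by 1.38 when its probe sets were averaged.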
